A study of Caenorhabditis elegans with 2 samples.

Results

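Between the strongest CEH-44 sites of the fourth-stage larva and the long tail of weak candidates lay 2478 candidate sites of middle rank, which form the subject here. They were selected on the deposited signal alone. The 115557 candidates of the series' ranked list were sorted by signal, ranks 1501 to 4000 were taken, and the 22 of these 2500 that overlapped a peak of the thresholded list of 1027 by at least 1 bp were dropped. They were set against the 2499 candidates of ranks 20001 to 22500 that likewise lay outside the thresholded list. The data came from chromatin immunoprecipitation and sequencing (ChIP-seq) of whole Caenorhabditis elegans L4 larvae of strain RW12327, harvested at 49 hours after synchronisation by bleaching and starvation as L1 larvae. In this strain the endogenous ceh-44 gene carries an inserted TY1, EGFP and 3xFLAG tag (allele st12327, on chromosome III), and the precipitation used an antibody against GFP. There was 1 group of 2 biological replicates, and no other genotype, stage or treatment. Since whole larvae were used, signal from a few strongly bound cells and from many weakly bound cells cannot be told apart.

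CEH-44 belongs to the CUT family of homeobox transcription factors, in the branch named after CUX. CUT proteins carry a homeodomain together with one or more CUT domains, and both contact DNA. In C. elegans the CUT genes are best known for driving genes that all neurons share, and they act together, so that loss of 1 of them alone has mild effects. The depositors' thresholds rest on the irreproducible discovery rate (IDR), an estimate of how often candidates of a given rank fail to repeat between a pair of inputs.

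The 101 bases around the summit are shown for 6 members on which the description turns. The first 3 lie on tRNA genes, where the internal promoter of RNA polymerase III holds the B box, and are printed on the strand of the tRNA gene. The next 2 are the strongest members at a ribosomal protein promoter and at a neuronal promoter, and the last is the strongest member that entered a single replicate's own thresholded list, all 3 printed on the plus strand. Capitals mark GGTTCGA, the core of the B box, and GAGAGA, a GA repeat common in worm promoters. The sequences are those of RefSeq for WBcel235, which is ce11.
Y43F4A.t1, a tRNA-Tyr gene (chrIII:13224541-13224641, plus strand): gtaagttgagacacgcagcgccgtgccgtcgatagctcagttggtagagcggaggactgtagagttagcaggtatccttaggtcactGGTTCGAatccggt
C40C9.t2, a tRNA-Lys gene (chrX:13655925-13656025, minus strand): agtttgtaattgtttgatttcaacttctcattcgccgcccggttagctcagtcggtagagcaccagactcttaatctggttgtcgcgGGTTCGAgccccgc
F19H6.t1, a tRNA-Glu gene (chrX:12367608-12367708, minus strand): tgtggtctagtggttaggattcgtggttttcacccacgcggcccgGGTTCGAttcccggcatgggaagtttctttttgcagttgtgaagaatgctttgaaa
rps-22, upstream (chrIII:1949611-1949711, plus strand): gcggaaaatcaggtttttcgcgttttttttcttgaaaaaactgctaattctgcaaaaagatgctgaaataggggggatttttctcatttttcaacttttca
unc-115, upstream (chrX:10146669-10146769, plus strand): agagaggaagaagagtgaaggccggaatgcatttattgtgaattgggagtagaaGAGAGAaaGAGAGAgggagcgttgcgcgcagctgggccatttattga
vhp-1, intron (chrII:5326460-5326560, plus strand): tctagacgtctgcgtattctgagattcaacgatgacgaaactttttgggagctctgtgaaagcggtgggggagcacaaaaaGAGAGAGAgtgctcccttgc
Each of the 3 tRNA windows held the B-box word, the unc-115 and vhp-1 windows held the GA repeat, and the rps-22 window held none of the 5 words counted in the comparisons of sequence.

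The signal that chose the members ran between 41.96 and 52.76 (median 45.5), on the depositors' own scale, against 28.09 to 29.04 (median 28.6) at the comparison ranks. The candidate just above the upper limit, rank 1500, had a signal of 52.767, and the first inside it, rank 1501, had 52.764. At the lower limit rank 4000 had 41.962 and rank 4001 had 41.960, so neither limit falls at a step in the signal. The median −log10 of the global IDR was 1.07 among the members (quartiles 0.806 and 1.36) and 0.310 at the comparison ranks. A single member passed a value of 2, the level that an IDR of 0.01 gives. That candidate (chrIV:14780284-14780539, rank 2881) was intergenic, with a −log10 IDR of 2.50, and 83.1% of the 30-base words around its summit occur more than once in the genome. Every member was 256 bp wide.

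The first comparison asked where in the genome the members lie. Their summits were found at coding promoters more often than those of the weak candidates, and in exons and introns of coding genes less often. A promoter here is the stretch from 1000 bp upstream to 200 bp downstream of the most upstream start of a coding gene. It held 702 of the 2478 members (28.3%, exact 95% interval 26.6 to 30.1%), against 521 of the 2499 comparison candidates (20.8%, 19.3 to 22.5%), and 21.4% of all candidates in the ranked list. The odds ratio was 1.50 (95% interval 1.31 to 1.71, two-sided Fisher's exact test, p = 8.75e-09 adjusted over 10 tests of place and word). Exons held 667 members (26.9%) and 745 comparison candidates (29.8%), with 28.1% of all candidates (odds ratio 0.867, 0.765 to 0.983, adjusted p = 0.0394 by the same exact test). Introns held 602 members (24.3%) and 690 comparison candidates (27.6%), with 28.9% of all candidates (odds ratio 0.841, 0.739 to 0.957, adjusted p = 0.0160 by the exact test). Intergenic sequence held 20.5% of the members, 21.7% of the comparison candidates and 21.7% of all candidates (Fisher's exact test, odds ratio 0.927 with 95% limits 0.807 and 1.06, adjusted p = 0.313).

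The exon and intron differences were less stable than the promoter difference. By Fisher's exact test, the exon call was lost when candidates with repeated sequence around the summit were left out (odds ratio 0.954, adjusted p = 0.487) and in the list of replicate 2 alone (0.910, adjusted p = 0.175). It was also lost with a 500 bp promoter (0.882), outside all 4 thresholded lists (0.877), away from thresholded peaks (0.889) and away from small RNA genes (0.906). The intron call was lost in the list of replicate 1 alone (0.993, adjusted p = 1.00) and within 40 to 50% GC (0.932, adjusted p = 0.574), by the same exact test. A replicate's list alone was cut at the same ranks and cleared of that replicate's own thresholded peaks only. It can therefore hold peaks of the series' thresholded list, and is not the same part.

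Within the members the promoter share was lowest in the weakest 500 ranks, and no trend was tested. It was 31.0% at ranks 1501 to 2000, 33.4% in the next 500 ranks, 28.2% and 28.1% in the 2 bins after that, and 21.1% (exact 95% interval 17.6 to 24.9%) at ranks 3501 to 4000. The last of these lies inside the interval of the comparison ranks, and all 4 of the stronger bins lie above it. The exon share ran between 22.4% at ranks 1501 to 2000 and 30.8% at ranks 2501 to 3000, and was 29.5% in the weakest bin. In the thresholded list itself 43.2% of summits were at promoters and 3.51% in exons, so the exon share of the members stood far nearer to that of the comparison candidates.

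**Figure D1:**
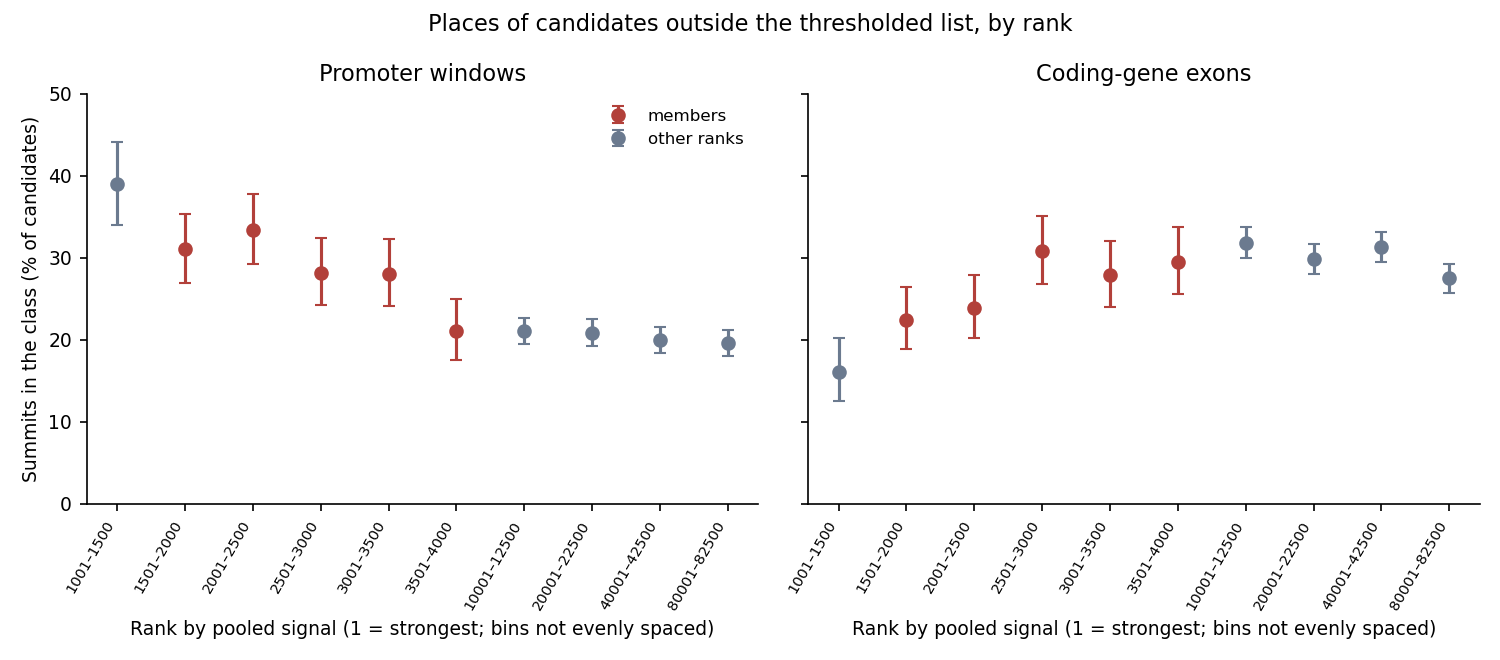
Share of candidates outside the thresholded list whose summit lay in a promoter window (left) or an exon of a coding gene (right), by rank of pooled signal; points are shares and bars exact 95% binomial intervals. Promoter shares of the members (red) are 21.1% in their weakest bin, close to the 20.8% of ranks 20001 to 22500, while exon shares are between 27.9% and 30.8% in the 3 weaker bins.

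The members at promoters lay close to the start. Measured from the nearest coding start, their median position was 263.5 bp upstream (quartiles 571 and 36 bp upstream), against 317 bp upstream (quartiles 645 and 11 bp upstream) for the comparison candidates at promoters. Over all summits, wherever they lay, the median distance to the nearest coding start was 1409 bp for the members and 1555 bp for the comparison candidates, a difference of -146 bp (two-sided permutation test with 100000 permutations, p = 0.0308). This call was lost without the candidates within 1000 bp of a thresholded peak (-122.5 bp, permutation p = 0.0740). A summit lay in the windows of at least 2 coding genes for 134 members (5.41%, exact 95% interval 4.55 to 6.37%) and 56 comparison candidates (2.24%, 1.70 to 2.90%). The share was 2.49% over all candidates and 15.3% in the thresholded list. Such shared windows mark neighbouring or divergent genes whose starts lie close together. In all, 831 of the 19973 coding genes had a member in their window, and 803 of these had no thresholded peak there. Over all coding genes only 598 (2.99%) had a thresholded peak in the window, and the rule dropped members overlapping such peaks. The 803 are therefore not a result about the members.

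The X chromosome, whose genes are subject to dosage compensation in the worm, held 385 members (15.5%) and 408 comparison candidates (16.3%), with 16.7% of all candidates (odds ratio 0.943, 0.807 to 1.10, adjusted p = 0.462 by Fisher's exact test). Among the autosomes, chromosome V held 16.8% of the members and 20.7% of the comparison candidates, and chromosome III held 17.7% and 14.8%. These autosomal shares were not tested.

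Base composition differed between the sets and moves with several of the results. The median GC content within 50 bp of the summit was 46.5% in the members and 40.6% at the comparison ranks, with 50.5% in the thresholded list. Of the members, 463 (18.7%) had repeated sequence around the summit, meaning that at least 10% of the 30-base words within 100 bp occur more than once in the genome. This held for 334 (13.4%) of the comparison candidates and 14.6% of all candidates. The part of GC content in the place shares was not tested beyond 1 setting, chosen after seeing the data, that kept candidates of 40 to 50% GC in both sets. There promoters held 303 of 1123 members and 201 of 1025 comparison candidates (odds ratio 1.51, Fisher's exact test, adjusted p = 0.000561).

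The second description concerns the genes of small RNAs. tRNA genes are transcribed by RNA polymerase III from promoter elements inside the gene, and 26.8% of the thresholded summits lay beside one. A summit lay within 250 bp of a tRNA gene for 67 members (2.70%, exact 95% interval 2.10 to 3.42%), against 2 comparison candidates (0.0800%, 0.00969 to 0.289%). The share over all candidates was 0.473%. Of the 67, 44 summits lay inside the tRNA gene, and the median summit lay 25 bp downstream of the gene's first base, in genes whose median length is 72 bp. A member summit was near 75 of the 612 tRNA genes (12.3%), 74 of them with no thresholded peak nearby, while 304 tRNA genes had a thresholded peak. So the members and the thresholded list between them lay near 378 tRNA genes. The rule dropped members overlapping a thresholded peak, which limits how often both lie near the same gene.

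The tRNA genes near members came from all 6 chromosomes and from every named isotype except selenocysteine. tRNA-Lys and tRNA-Gly genes led with 8 each, of 46 and 55 genes, and tRNA-Ile followed with 6 of 29. tRNA-His had 5 of its 20 genes near a member and 4 near a thresholded peak, while tRNA-Cys had 1 of its 13 near a member and 11 near a thresholded peak. The X chromosome, which carries 276 of the 612 tRNA genes, held 36 of the 75. Counted by rank, 25 and 22 of the 67 members fell in the 2 strongest bins of 500 ranks, and 6, 11 and 3 in the others.

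The 6 strongest members at tRNA genes had these values in the replicates' own lists. Y43F4A.t1 (tRNA-Tyr, rank 1509) had signals of 20.5 (replicate 1) and 25.4 (replicate 2). C28A5.t2 (tRNA-Arg, rank 1521), 35 bp from the summit and within an intron of the homeobox gene ceh-43, had 25.0 in replicate 1 and 24.2 in replicate 2. In the replicates' own lists Y43F4A.t1 ranked 5605 and 4815, and C28A5.t2 ranked 2140 and 6168, in replicates 1 and 2. T07D10.t1 (tRNA-Ala, rank 1530) had 33.8 and 23.0, and T09B4.t2 (tRNA-Ile, rank 1576) had 30.9 and 27.7, in replicates 1 and 2. C40C9.t2 (tRNA-Lys, rank 1579) had 28.8 in replicate 1 and 20.5 in replicate 2, and F49E2.t1 (tRNA-Val, rank 1598) had 19.1 and 33.2. Of these 6, 4 had the larger signal in replicate 1, whereas most members listed in both had the larger signal in replicate 2. The −log10 IDR of T07D10.t1 was 0.212, below the comparison candidates' median of 0.310. For the others of the 6 it ran between 1.44 and 1.83. Over all the members at tRNA genes the signal ran between 6.43 and 33.8 in replicate 1 (median 21.3, 62 listed) and between 15.6 and 48.9 in replicate 2 (median 26.8, 63 listed).

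Repeated sequence moves with this class. Of the 67 members at tRNA genes, 63 had repeated sequence around the summit, against 463 of all 2478 members. With such candidates left out, 4 of 2015 members and 1 of 2165 comparison candidates lay near a tRNA gene. How the reads in repeats were assigned is not given in the sources used here, and their part in these signals was not tested.

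Genes of snoRNAs, which guide the modification of ribosomal RNA, and of snRNAs, which serve in splicing, showed a smaller difference. They lay within 250 bp of 30 member summits (1.21%, exact 95% interval 0.818 to 1.72%), 19 at snoRNA and 11 at snRNA genes, against 10 comparison candidates (0.400%, 0.192 to 0.735%) and 0.406% of all candidates. In the list of replicate 2 alone the counts were 22 against 12 (0.400 points, -0.065 to 0.894, against 0.810 points here), an interval that holds 0. Of the 30, 12 had repeated sequence around the summit. The strongest was near Y40B1A.6, a snoRNA gene (rank 1618), with signals of 15.5 (replicate 1) and 35.7 (replicate 2). Next came sls-2.16 (rank 1648), filed as an snRNA gene and lying in an intron of the glutamate receptor gene glr-2, with 26.3 in replicate 1 and 27.4 in replicate 2. C47F8.9, an snRNA gene (rank 1722), had 21.6 and 34.7 in replicates 1 and 2, and T27E4.22, also an snRNA gene (rank 1805), had 21.3 and 29.9. R166.7, a snoRNA gene in an intron of mnk-1 (rank 1794), went the other way, with 26.5 in replicate 1 and 19.3 in replicate 2. F54E7.11, a snoRNA gene inside the ribosomal protein gene rps-12 (rank 1839), had 15.4 and 37.4 in replicates 1 and 2. Of these 6, 5 had the larger signal in replicate 2, and over all members of the class the median signal was 23.0 in replicate 1 and 25.3 in replicate 2.

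**Figure D2:**
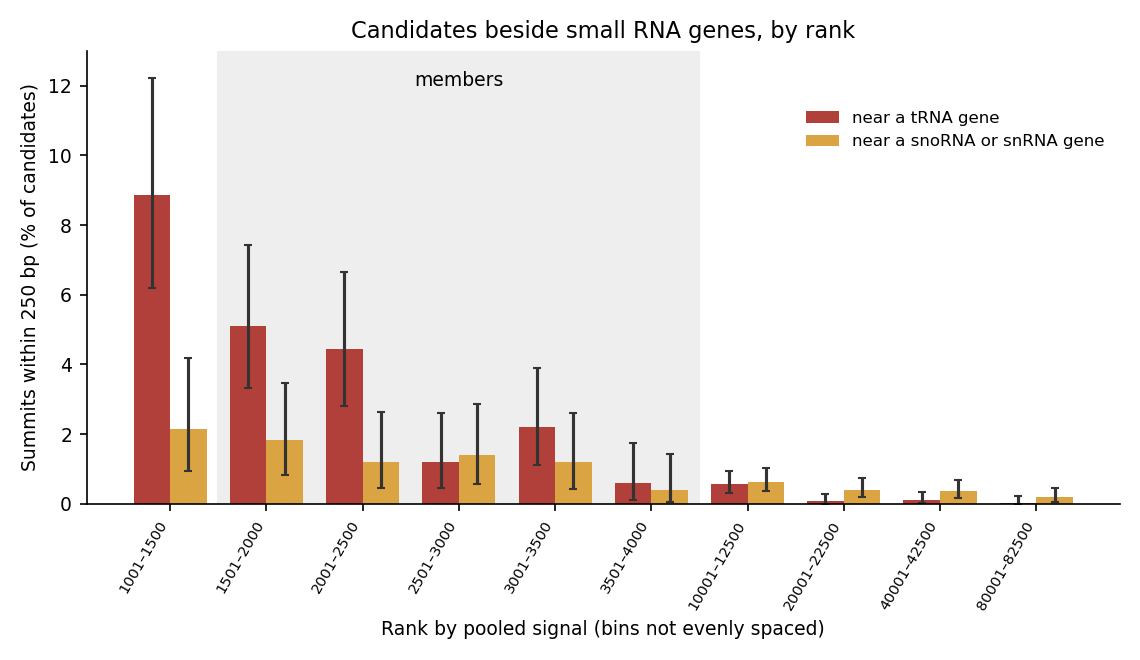
Share of candidates outside the thresholded list with a summit within 250 bp of a tRNA gene (red) or of a snoRNA or snRNA gene (yellow), by rank of pooled signal, with exact 95% binomial intervals. The tRNA share is 5.10% in the strongest bin of the members (shaded) and 0.602% in the weakest.

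Ribosomal protein genes, the third class, were met by 11 members, against 3 comparison candidates. That is 0.444% of the members and 0.120% of the comparison candidates, with 0.127% over all candidates. The members lay at 11 of the 82 genes (13.4%), 9 of which had no thresholded peak in the window, while 26 of the 82 had a thresholded peak. Over all coding genes 4.16% had a member in the window and 2.99% a thresholded peak. Against ranks 10001 to 12500 there were 11 members and 7 candidates (0.164 points, -0.192 to 0.542, against 0.324 points here), and in the list of replicate 2 alone 13 and 0 (0.520 points). Within 40 to 50% GC, chosen after seeing the data, the counts were 3 members and 3 comparison candidates, so the difference did not hold there.

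By subunit, 5 of the 32 small-subunit genes and 6 of the 50 large-subunit genes had a member. Among small-subunit genes, rps-22 (rank 1523, summit 874 bp upstream and inside the neighbouring gene polh-1) had signals of 25.8 (replicate 1) and 22.6 (replicate 2). The member at rps-5 (rank 1657, 362 bp upstream) had 26.4 in replicate 1 and 25.0 in replicate 2, and rps-16 (rank 1783, 46 bp downstream of the start) had 34.2 and 24.6. These 3 each had the larger signal in replicate 1. In contrast rps-26 (rank 1762) had 19.3 in replicate 1 and 29.1 in replicate 2, and rps-6 (rank 1877, 987 bp upstream, inside usp-3) had 14.3 and 33.0. The −log10 IDR of rps-16 was 0.180, below the comparison candidates' median of 0.310. For the other small-subunit members it ran between 1.34 and 1.81. Among large-subunit genes, rpl-35 (rank 1869, 4 bp upstream) had 26.3 in replicate 1 and 26.1 in replicate 2. The gene rpl-31 (rank 2277), whose window is shared with sac-2, had 23.6 in replicate 2 and no candidate in replicate 1, the single case among the 11. For rpl-21, rpl-27, rla-1 and rpl-17 the signal ran between 17.2 and 20.7 in replicate 1 and between 25.7 and 27.3 in replicate 2. The member at rla-1, which encodes an acidic stalk protein, also lay near a snoRNA gene. None of the 11 had repeated sequence around the summit.

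Other housekeeping classes, in short gene lists, and the collagen genes had small counts. A member lay in the window of 4.35% of the 69 mitochondrial ribosomal protein genes and 5.41% of the 37 splicing factor genes. The share was 5.13% of the 39 respiratory chain genes, 3.21% of the 156 collagen genes and 4.16% of all coding genes. Mitochondrial ribosomal protein genes had 3 members (mrpl-47, mrps-12 and mrpl-23) and 3 comparison candidates. Splicing factor genes had 2 (sftb-1 and prp-21) and 2. Genes of the respiratory chain had 2 members (cox-6C, a subunit of cytochrome c oxidase, and atp-3, a subunit of the ATP synthase) and no comparison candidate. For atp-3 (rank 3755) the signal was 34.6 in replicate 2, with no candidate in replicate 1, and for cox-6C (rank 3398) it was 9.41 in replicate 1 and 33.7 in replicate 2. Collagen genes of the cuticle had 5 members (col-49, col-109, col-34, col-87 and col-72, named after their values were seen) and 4 comparison candidates.

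For neuronal genes the direction of the difference depended on the list that was ranked and on the comparison ranks, and the members' share was close to that of all candidates. The 280 listed genes cover pan-neuronal components, neurotransmitter synthesis and transport, neuronal identity factors, axon guidance, neuropeptides and cilia. Their promoters held 8 members (0.323%), against 17 comparison candidates (0.680%) and 0.343% of all candidates. The difference of -0.36 percentage points has a 95% interval between -0.79 and 0.05 (Newcombe's method), and against ranks 10001 to 12500 the counts were 8 members and 6 candidates. Ranks 40001 to 42500 held 8 candidates at these promoters (0.320%). Both replicates' own lists, at the same ranks, turned the direction: there were 11 against 3 in that of replicate 1 (0.32 points, 0.0174 to 0.675) and 10 against 8 in that of replicate 2 (0.0802 points, -0.28 to 0.45). Those lists were not cleared of the series' thresholded peaks. By gene, 2.86% of the neuronal list had a member and 1.79% a thresholded peak, both below the shares of all coding genes.

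The 8 members fell in 5 of the 6 groups. The pan-neuronal genes, 2 of 32, were syd-2 and snb-1. The gene syd-2, whose liprin protein organises the presynaptic active zone (rank 2996, 427 bp upstream), had signals of 21.6 (replicate 1) and 20.9 (replicate 2). The gene snb-1, which encodes the vesicle protein synaptobrevin (rank 3341), had 20.1 and 23.4. In the replicates' own lists syd-2 ranked 4361 and 11472, and snb-1 ranked 6182 and 7162, in replicates 1 and 2. The −log10 IDR of syd-2 was 0.161, below the comparison candidates' median of 0.310, and that of snb-1 was 0.820. The neurotransmitter list had unc-25, the enzyme that makes GABA (rank 3963), with 13.0 in replicate 1 and 28.4 in replicate 2. Axon guidance had unc-115, an actin-binding protein (rank 1527), with 19.0 in replicate 1 and 32.5 in replicate 2. It was the strongest of the 8, and its window is printed above.

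The neuropeptide list of 140 genes had 3. At nlp-4 (rank 1619) the signal was 16.7 in replicate 1 and 37.2 in replicate 2, at nlp-40 (rank 1861) 24.7 and 26.0, and at nlp-12 (rank 2104) 26.5 and 20.8. The member at nlp-4 lay in a window shared with exos-3, and that at nlp-40 in one shared with homt-1. The summit at nlp-12, 587 bp upstream, lay inside the neighbouring gene emr-1. The ciliary gene daf-10, an intraflagellar transport component, had a member 931 bp upstream (rank 2137, signal 24.4 in replicate 1 and 18.6 in replicate 2), in windows shared with rpb-12 and aly-2. None of the 24 identity factors had a member or a comparison candidate. All 8 members were listed in both replicates, and none had repeated sequence around the summit.

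Chemoreceptor genes, the large family of receptors used by sensory neurons, had 24 members (0.969%), 23 comparison candidates (0.920%) and 1.2% of all candidates. They met 27 of 1309 genes (2.06%), the strongest being str-150, sri-5, srh-218, str-264, sre-36 and srd-59. At srh-218 (rank 1944) the signal was 10.7 in replicate 1 and 37.0 in replicate 2, in a window shared with str-264, while str-150 (rank 1578) had 27.5 and 25.0. The ceh-44 locus held 1 member in an exon (chrIII:2540046-2540301, rank 1758), with signals of 11.0 (replicate 1) and 34.5 (replicate 2). The annotation used for places files this locus under cone-1, and whether the exon belongs to ceh-44 transcripts was not examined. The ceh-44 gene carries the tag, and whether tag insertion affects signal there was not tested.

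The members' sequences were then compared with those of the weak candidates, on both strands within 50 bp of the summit, and with an equally wide window centred 300 bp to the left of each summit. The word ATCGAT and the word ATCAAT are known from CUT proteins of other animals, and ATTAAT holds the core that many homeodomains bind. None of the 5 words contains another, and a summit was counted once for a word however often it held it.

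The GA repeat and the B-box word were more frequent at the members' summits on both comparisons. GAGAGA was present at 247 members (9.97%), against 163 comparison candidates (6.52%) and 6.01% of all candidates (Fisher's exact test, odds ratio 1.59 with 95% limits 1.29 and 1.96, adjusted p = 3.68e-05). It was found at the summit alone in 228 members and in the flank alone in 108 (exact McNemar test, p = 2.66e-10 adjusted over 5 words). GGTTCGA was present at 69 members (2.78%), 24 comparison candidates (0.960%) and 1.11% of all candidates (Fisher's exact test, odds ratio 2.95 with 95% limits 1.83 and 4.93, adjusted p = 8.21e-06), and at the summit alone in 64 members and in the flank alone in 15 (adjusted p = 3.84e-08, exact McNemar test). The ratio of these counts, 4.27, was 2.44 in the list of replicate 1 alone (61 and 25) and 2.39 in that of replicate 2 alone (55 and 23), and passed in each. Those lists were cleared of their own thresholded peaks only. They can hold peaks of the series' thresholded list, where the word was at 12.8% of summits. Of the 69 members with the word, 31 were among the 67 near a tRNA gene. Away from small RNA genes the word was at 37 of 2381 members and 23 of 2487 comparison candidates (Fisher's exact test, odds ratio 1.69, adjusted p = 0.103), which no longer passed. Within 40 to 50% GC neither word passed against the comparison ranks (odds ratios 1.36 and 1.92 for the GA repeat and the B-box word, adjusted p = 0.112 for each, Fisher's exact test).

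No call of a higher frequency at the members' summits was made for the words known from CUT proteins. ATCGAT was present at 80 members (3.23%), 96 comparison candidates (3.84%) and 3.45% of all candidates (Fisher's exact test, odds ratio 0.835 with 95% limits 0.609 and 1.14, adjusted p = 0.313), and at the summit alone in 73 members and in the flank alone in 87 (adjusted p = 0.304, exact McNemar test). In the list of replicate 1 alone it was less frequent at the summit than in the flank (62 and 96, ratio 0.646, adjusted p = 0.0106, exact McNemar test), and in that of replicate 2 alone the direction turned (1.06). ATCAAT was less frequent at the members, with 178 (7.18%), against 235 comparison candidates (9.40%) and 9.33% of all candidates (Fisher's exact test, odds ratio 0.746 with 95% limits 0.605 and 0.918, adjusted p = 0.0117). It was at the summit alone in 162 members and in the flank alone in 219 (adjusted p = 0.00507, exact McNemar test). The first of these calls was lost against ranks 10001 to 12500 (odds ratio 0.986, adjusted p = 0.913, Fisher's exact test), in either replicate's list alone and within 40 to 50% GC (0.678, adjusted p = 0.0674). The second was lost in the list of replicate 1 alone (ratio 0.840, adjusted p = 0.0954) and without repeated sequence (0.793, adjusted p = 0.0519), by the exact McNemar test. A lower share of ATCAAT at the summit than in the flank was not particular to the members. It was 9.40% against 11.1% at the comparison ranks and 4.77% against 10.8% in the thresholded list. ATTAAT was present at 62 members (2.50%), 82 comparison candidates (3.28%) and 4.11% of all candidates (Fisher's exact test, odds ratio 0.756 with 95% limits 0.532 and 1.07, adjusted p = 0.155). It passed, as less frequent, in the list of replicate 2 alone (0.668, adjusted p = 0.0314) and against ranks 40001 to 42500 (0.622, adjusted p = 0.0064, Fisher's exact test), and its direction turned within 40 to 50% GC (1.41). ATTAAT was at the summit alone in 57 members and in the flank alone in 143, fewer at the summit (adjusted p = 2.57e-09, exact McNemar test). At the comparison ranks its share was also lower at the summit (3.28%) than in the flank (5.28%). These words hold mostly A and T, GC content was higher at the members' summits, and its part in these counts against the flank was not tested.

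**Figure D3:**
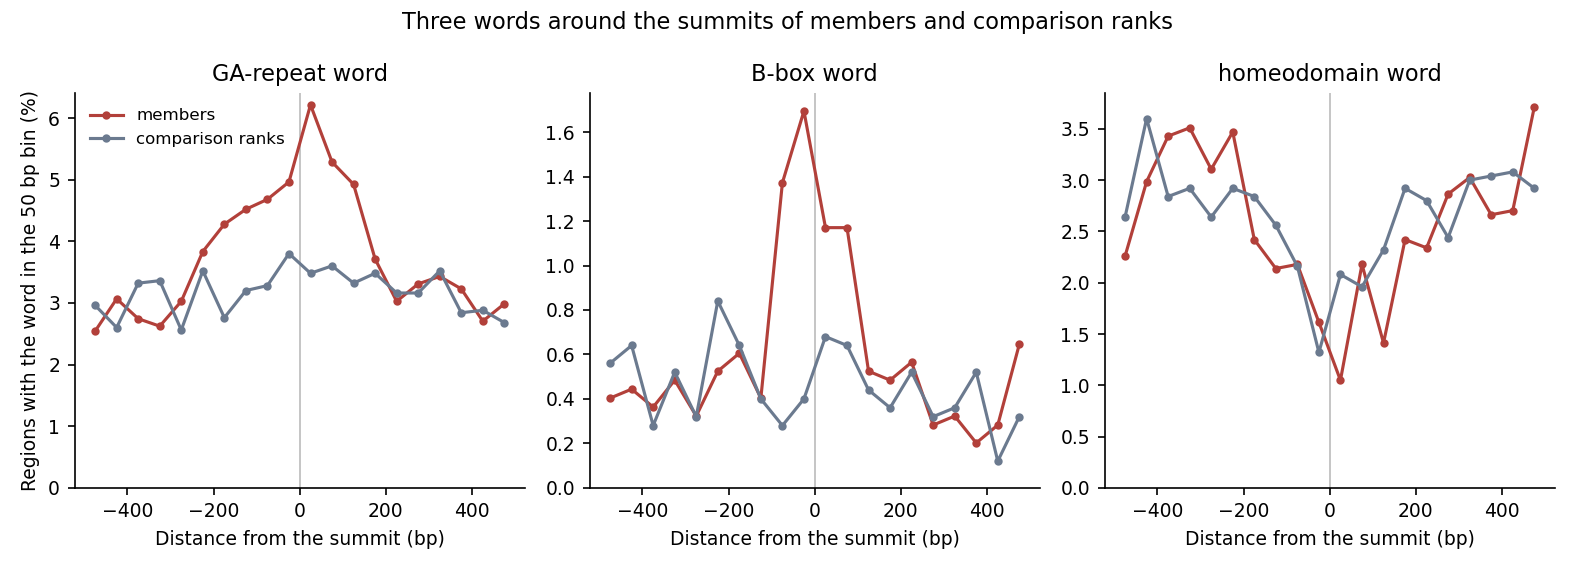
Share of regions holding a word in each 50 bp bin around the summit, for members (red) and comparison ranks (grey); GA-repeat word is GAGAGA, B-box word GGTTCGA and homeodomain word ATTAAT, counted on both strands. The GA repeat reaches 6.21% of the members in the bin just right of the summit, against 3.48% of the comparison candidates, and the homeodomain word dips near the summit in both sets.

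The last description concerns the replicates, whose candidates entered the pooled signal that chose the members, so their agreement is given without a test. Of the members, 2145 (86.6%, exact 95% interval 85.2 to 87.9%) overlapped a candidate in both replicates' own ranked lists, against 1263 comparison candidates (50.5%, 48.6 to 52.5%) and 28.6% of all candidates. A further 118 members were listed in replicate 1 alone, 214 in replicate 2 alone and 1 in neither. The comparison candidates were split into 488, 639 and 109 for the same 3 outcomes. Along the ranks the share in both lists was 91.0% at ranks 1501 to 2000 and 80.3% at ranks 3501 to 4000.

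Ranks in the replicates' own lists come from lists of other lengths than the pooled one, and the members were held to a range of pooled rank alone, so the ranks are given as a description. Where listed, the members' median rank was 5611 in replicate 1 and 4467 in replicate 2, against 21497 and 22788 for the comparison candidates. The median signal was 20.5 in replicate 1 (range 6.43 to 44.6, 2263 listed) and 25.8 in replicate 2 (range 7.61 to 51.1, 2359 listed), against 14.2 and 17.1 for the comparison candidates in replicates 1 and 2. Of the members in both lists, 1468 of 2145 had the larger signal in replicate 2. Over all candidates listed in each replicate the median signal was 12.6 in replicate 1 and 15.2 in replicate 2. Whether raw signals of the 2 lists share a scale is not known. Of the members, 97 (3.91%) were within the first 4000 ranks of both replicates, 1775 (71.6%) of 1 replicate, and 606 (24.5%) of neither. Among the comparison candidates, 1 was within those ranks in both replicates and 102 in 1 replicate. The rule leaves out the strongest pooled ranks and the thresholded peaks, which limits the members' count in both. Across the 2145 members in both lists the signals of the 2 replicates ran opposite to each other (Spearman's rho -0.68), as a description over candidates held to a narrow range of pooled signal, which share the same 2 libraries.

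**Figure D4:**
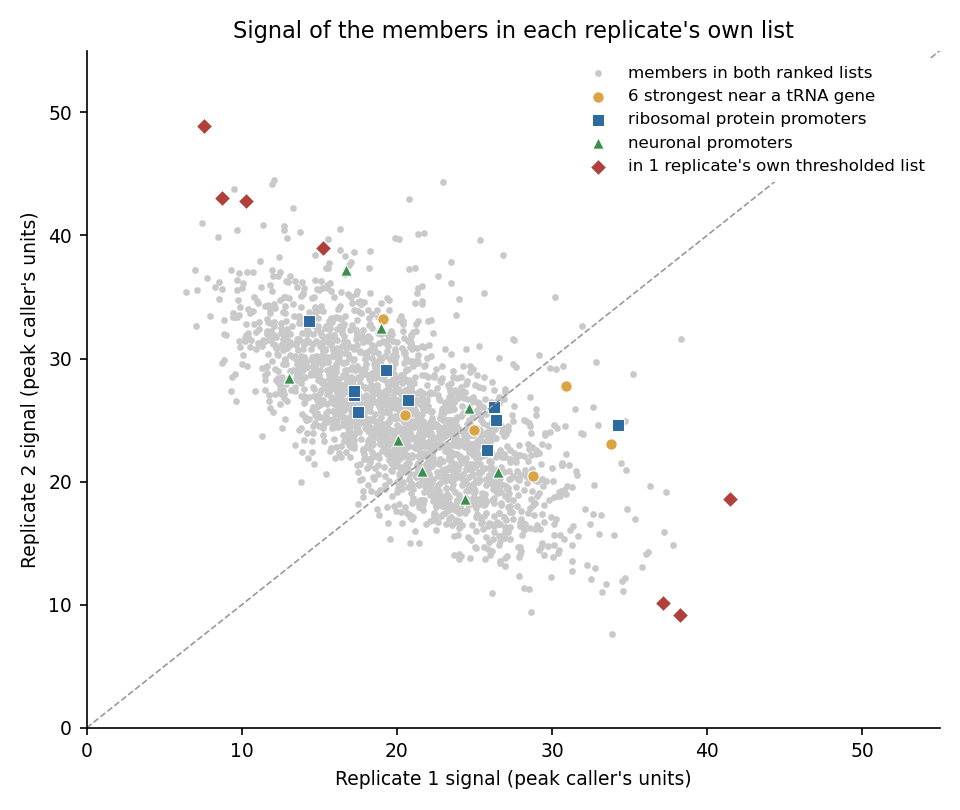
Signal of each member in replicate 1's list (horizontal) and replicate 2's list (vertical), in the peak caller's units, for the 2145 members listed in both; the dashed line marks equal values. Members beside tRNA genes, ribosomal protein genes and neuronal genes lie within the cloud of all members, and most of those in a single replicate's own thresholded list (diamonds) lie at its ends.

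Each replicate also had a thresholded list made within it. Of the members, 10 overlapped one (0.404%), 5 in replicate 1 and 5 in replicate 2, none overlapped both, and no comparison candidate overlapped either. The share over all candidates was 0.575%, which counts the peaks that also passed in the series list. Over the candidates outside the series' thresholded list, as the members are, it was 0.0253%. Each of the 10 had the larger value in the replicate whose list it entered, or no candidate in the other. They were picked by passing in that replicate while pooled signal was held to a narrow range. This imbalance therefore follows in part from the choice and is given as a description. For replicate 1, the member in an intron of vhp-1, a MAP kinase phosphatase gene (chrII:5326382-5326637, rank 1583), had a signal of 37.9 in replicate 1 and no candidate in replicate 2. The member in an intron of F56A8.3 (chrIII:13258839-13259094, rank 1856) had 38.2 in replicate 1 and 9.16 in replicate 2. The member in an intron of T26H5.8 (chrV:15429181-15429436, rank 2361) had 44.6 in replicate 1, the highest value of any member there, and none in replicate 2. At the promoter of row-1 (chrI:10478123-10478378, rank 2466) the values were 37.1 and 10.2, and 985 bp upstream of pfn-1, which encodes the actin-binding protein profilin (rank 3131), they were 41.5 and 18.6. All 5 had the larger raw value in replicate 1, or no candidate in replicate 2.

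The 5 members in replicate 2's thresholded list were unequal the other way. In an intron of lgg-2, an autophagy gene (chrIV:10935301-10935556, rank 1591), the signal was 15.2 in replicate 1 and 39.0 in replicate 2. At the promoter of ZK816.3 (chrX:3347943-3348198, rank 1628) it was 10.3 in replicate 1 and 42.8 in replicate 2. Beside the tRNA-His gene F28H6.t2 (chrX:14135015-14135270, rank 1913) it was 8.74 and 43.1, and inside the tRNA-Glu gene F19H6.t1 (rank 2311) it was 7.59 and 48.9. In an exon of abu-13 (chrIII:6945261-6945516, rank 2755) it was 46.6 in replicate 2, with no candidate in replicate 1. Repeated sequence lay around 3 of these 5 summits, those at ZK816.3, F28H6.t2 and F19H6.t1, and around 1 of the 5 in replicate 1, that at T26H5.8.

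The authors' conservative thresholded list, made from the same 2 replicates, held 23 of the members (0.928%) and 1 of the comparison candidates. The share over all candidates was 0.881%, and 0.127% over those outside the series' thresholded list. All 23 were listed in both replicates. Since the conservative list was made from both, this presence is not independent of it. The member in an intron of lis-1, a dynein regulator (rank 1606), had signals of 26.6 (replicate 1) and 30.1 (replicate 2). The member upstream of gln-1, a glutamine synthetase gene (rank 2167), had 32.0 and 32.7, and that upstream of eor-2 (rank 2736) had 29.2 and 30.3. These 3 were chosen after their values were seen. Across the 23, signal in replicate 1 ran between 22.6 and 35.2 and in replicate 2 between 27.6 and 44.3.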

How the data were processed

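Peak lists on ce11 (ENCODE narrowPeak format), per the labels, were analysed for 2 replicates, which were separate biological replicates. The sources used here do not give the aligner, peak caller, read depth or signal scale, so no interval could be set on a signal. The signal, the score (a scaled IDR) and the −log10 of the global IDR of each candidate are the authors' deposited values; summit offsets are deposited too. Signal ranked candidates within a list only. Signals of the 2 replicates are printed side by side as raw values of separate lists, with no common scale set. The members and gene lists were chosen with earlier results of these data known.

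Summits were placed on the Ensembl WBcel235 annotation (release 115), with tRNA names and sequence from RefSeq. A summit in a promoter window was counted there, and otherwise in an exon, an intron or intergenic sequence of coding genes. Scripts in Python 3.11.15 with NumPy 2.4.6, pandas 2.3.3 and SciPy 1.17.1 were checked on simulated data. Fisher's exact tests compared shares, Benjamini-Hochberg adjusted, at a threshold of 0.05. Shares carry exact (Clopper-Pearson) or, for differences, Newcombe intervals, which cover counting error only; candidates are not independent replicates of a condition. Gene lists and replicate presence were described without a test. The rule for naming genes took up to 6 of the strongest members of each list, the members in a replicate's own thresholded list, the 10 strongest members, and ceh-44 if met. Not all of these are described singly, and names outside the rule are marked as chosen after their values were seen. Alternatives were other ranked lists, comparison ranks, windows, repeats, neighbours and, added after seeing the data, a GC range.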

Additional observations from a re-analysis of the deposited data

How the results depend on the processing

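Of 260 values recomputed under 17 alternatives, 217 kept their direction and their side of the threshold, or stayed within their interval, and the promoter share kept both under each alternative run for it. Causes were not tested. In a replicate's own list only that replicate's thresholded peaks were dropped, so peaks of the series' thresholded list could remain. Leaving out 1 replicate at a time (the other replicate's own list at the same ranks) gave odds ratios of 0.836 to 0.910 for exons, 0.856 to 0.993 for introns, 0.992 to 1.00 for the X chromosome, 0.832 to 0.968 for ATCAAT and 0.668 (passing) to 0.762 for ATTAAT, summit-to-flank ratios of 0.646 (passing) to 1.06 for ATCGAT and 0.739 to 0.840 (no longer passing) for ATCAAT, and neuronal differences of 0.0802 to 0.320 percentage points. Against ranks 10001 to 12500 the odds ratios were 1.04 for intergenic sequence, 1.06 for ATCGAT and 0.986 for ATCAAT, and the differences 0.0828 points for neuronal genes and 22.4 points for presence in both replicates. Against ranks 40001 to 42500, ATTAAT gave 0.622, which passed, and presence 56.1 points, and with 50% overlap presence gave 40.5 points. The exon odds ratio no longer passed at 0.882 with a 500 bp promoter, 0.877 outside all 4 thresholded lists (where by construction 0 points of presence in a replicate's own list remained), 0.889 away from thresholded peaks, 0.954 without repeated sequence and 0.906 away from small RNA genes. Away from thresholded peaks the distance difference was -122.5 bp and no longer passed. A 2000 bp promoter gave 0.687 points for ribosomal protein genes, and summits inside the gene 1.74 points for tRNA genes. Without repeated sequence the intergenic odds ratio was 0.831 and passed, the ATCAAT summit-to-flank ratio was 0.793 and no longer passed, and the tRNA difference was 0.152 points. Away from small RNA genes GGTTCGA gave 1.69 and no longer passed. Within 40 to 50% GC, chosen after seeing the data, odds ratios were 0.932 for introns, 1.08 for intergenic sequence, 1.14 for ATCGAT, 0.678 for ATCAAT, 1.41 for ATTAAT, 1.36 for GAGAGA and 1.92 for GGTTCGA, none of which passed. In that range the distance difference was -114 bp, which did not pass, and the differences were 1.96 points for tRNA, -0.0255 for ribosomal protein and -0.530 for chemoreceptor genes. No paired analysis was possible because the study has 1 group.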

Other observations

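The exonic members (26.9% of the set) were spread thinly over their host genes. They lay in 657 coding genes, 622 of which held 1 exonic member, 34 held 2 and 1 held 3. The gene with 3 was F55F10.1 on chromosome IV, and the genes with 2 include the giant muscle proteins ttn-1 and unc-89, the heterochronic genes lin-14 and hbl-1, and ubq-1, which encodes polyubiquitin. These names were chosen after their values were seen, and long genes offer more exon to hold a summit. Few members stood beside one another: 16 of the 2478 had another member's summit within 500 bp. Within 1000 bp of a thresholded peak lay 94 members (3.79%), against 42 comparison candidates (1.68%) and 1.78% of all candidates outside the thresholded list.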
